A study of Homo sapiens with 6 samples.

Results

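The endoplasmic reticulum (ER) folding genes described here are HSPA5, HERPUD1, HSP90B1, HYOU1, SDF2L1, CRELD2, MANF, CALR, PDIA4 and PDIA6, chosen by symbol from the deposited gene table. Of these 10 genes, 9 are among the 3511 genes in the table, and SDF2L1, a partner of ER chaperone complexes, is not listed. The libraries came from RKO, an established line of wild-type genotype grown from a human colorectal carcinoma. Cells were kept for 48 h in fasting medium with 1% fetal bovine serum and 1 g/L glucose (3 libraries) or in control medium with 10% serum and 4.5 g/L glucose (3 libraries). Serum and glucose were changed together, so their parts cannot be told apart. Both groups are 1 cell line in culture. The series also describes drug treatments, which were not analysed here.

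Proteins that enter the secretory pathway fold in the ER, where chaperones hold unfolded chains, isomerases form disulfide bonds, and chains that fail are sent back to the cytosol for degradation. When unfolded chains accumulate, the sensors IRE1, PERK and ATF6 start the unfolded protein response (UPR), in which the transcription factors XBP1, ATF4 and ATF6 raise the transcription of chaperone and degradation genes. Glucose feeds the N-linked glycans that many secretory proteins need to fold, and HSPA5 and HSP90B1 were first described as glucose-regulated proteins of cultured cells.

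Values are normalized read counts, that is, the reads of a gene divided by 1 size factor per library. The reads recovered from them in the listed genes numbered 4187326 to 5071791 in fasting libraries and 4017618 to 5602177 in control libraries. Total depth is unknown. The table holds only genes that the authors had called between the groups, at adjusted p-values up to 0.04999, so presence in it already required a difference, and the calls below describe the listed genes. The labels do not state whether libraries of a group came from separate cultures. The p-values therefore measure the spread between these 6 libraries alone, which may be technical. In such bulk RNA, fewer cells of a kind and less RNA per cell cannot be told apart. Of 10 colorectal epithelial markers, KRT18, a keratin, is the 1 listed, and of 10 fibroblast, immune and endothelial markers none is listed. A table of changed genes cannot show whether the other markers were present, so the cell label was not tested.

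All 9 listed genes had more RNA in fasting medium than in control medium, and in each of them the lowest fasting library lay above the highest control library. HERPUD1, which docks the degradation machinery in the ER membrane, stood 10.1-fold higher and HSPA5, the main HSP70-type chaperone of the ER lumen, 4.41-fold higher. The other 7 stood 2.02-fold (PDIA6) to 3.47-fold (HSP90B1) higher. The median log2 difference of the 9 genes was 1.32, with a range of 1.01 to 3.34, against a median of 0.53 over all listed genes. That 0.53 mixes 1745 genes called higher with 1567 called lower. Over the listed genes with a positive log2 difference the median was 1.04. PDIA6 (1.01), HYOU1 (1.10) and CALR (1.11) stood near that value. All 9 passed the threshold of 0.05 in limma with Benjamini-Hochberg adjustment over the 29845 genes that the authors had tested. In that same fit 49.7% of listed genes were called higher in fasting medium, and 50.2% lay wholly above control. The rest lay wholly below it: the groups overlapped in none of the 3511 listed genes. Separation of the libraries is thus no trait of the 9 genes. By the authors' deposited table, a share of 5.91% of all tested genes was called higher in fasting medium, these 9 among them. Of the listed genes, 59 had a larger log2 difference than HERPUD1 and 211 a larger one than HSPA5.

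**Figure D1:**
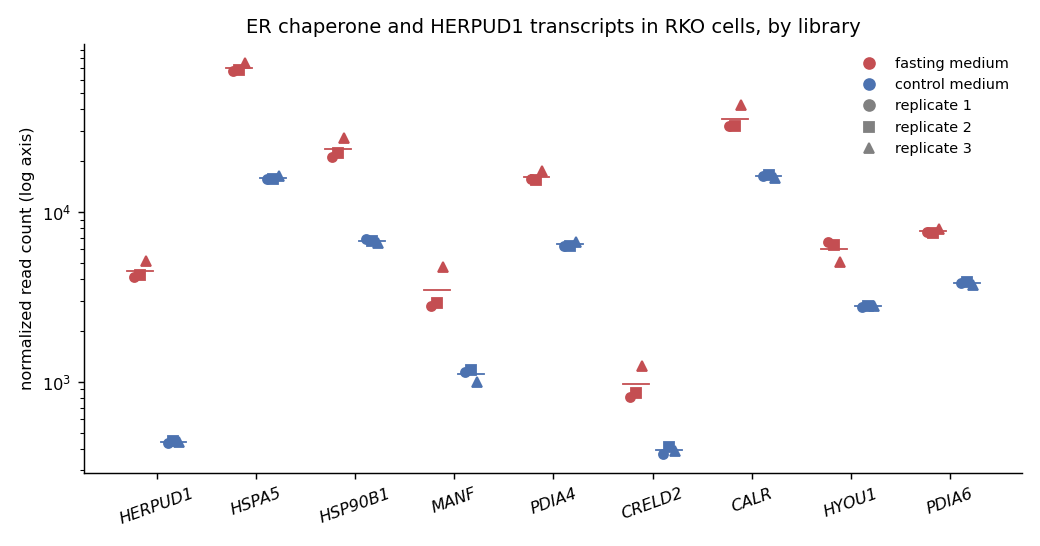
Normalized read counts on a log axis of the 9 listed ER folding genes in each library, fasting medium (red) left of control medium (blue), with marker shape for the replicate number and a bar at the mean of 3 libraries. In every gene the fasting points lie above the control points, and the gap is widest for HERPUD1. Fasting replicate 3 is the highest fasting library in 8 genes and the lowest in HYOU1.

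The start regions of the 10 genes were searched for 4 DNA elements through which the UPR is known to act. The ER stress response element (ERSE) is CCAAT followed 9 bases later by CCACG, where the factor NF-Y binds the first box and ATF6 or XBP1 the second. ERSE-II is ATTGG followed 1 base later by CCACG. The UPR element (UPRE), TGACGTGG, is bound by XBP1 and ATF6, and the C/EBP-ATF element, TGATGNAA, by ATF4 with a partner. Both strands of the RefSeq promoter windows (250 bases before to 50 bases after the start site, GRCh38.p14) were searched for exact matches. ERSE was first described in the promoters of HSPA5, HSP90B1 and CALR, and ERSE-II in that of HERPUD1, so matches there are no independent observation. The stretches with an ERSE or ERSE-II are printed 5′ to 3′ on the strand of the gene, with positions counted from the start site and the boxes in capitals. Boxes of elements that lie on the opposite strand appear as their reverse complement (CGTGG and ATTGG for ERSE, CGTGG and CCAAT for ERSE-II). In HERPUD1 the capitals nearest the 5′ end are a C/EBP-ATF element on the opposite strand.
HSPA5 (chr9:125241344-125241533, minus strand, −190 to −1): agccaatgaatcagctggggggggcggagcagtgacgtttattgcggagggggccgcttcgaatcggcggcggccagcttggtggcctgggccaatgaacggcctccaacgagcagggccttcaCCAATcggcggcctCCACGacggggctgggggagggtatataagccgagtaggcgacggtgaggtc
HERPUD1 (chr16:56931957-56932046, plus strand, −185 to −96): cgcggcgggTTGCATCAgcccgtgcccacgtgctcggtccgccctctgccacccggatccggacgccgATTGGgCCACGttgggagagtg
HSP90B1 upstream site (chr12:103930211-103930239, plus strand, −199 to −171): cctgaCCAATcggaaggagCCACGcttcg
HSP90B1 downstream site (chr12:103930316-103930344, plus strand, −94 to −66): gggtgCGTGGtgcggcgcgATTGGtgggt
HYOU1 (chr11:119057262-119057402, minus strand, −197 to −57): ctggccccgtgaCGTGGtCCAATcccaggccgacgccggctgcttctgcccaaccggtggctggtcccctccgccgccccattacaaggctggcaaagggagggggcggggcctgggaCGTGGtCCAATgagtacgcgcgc
SDF2L1 (chr22:21642102-21642136, plus strand, −200 to −166): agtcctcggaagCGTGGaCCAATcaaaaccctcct
CRELD2 (chr22:49918542-49918584, plus strand, −92 to −50): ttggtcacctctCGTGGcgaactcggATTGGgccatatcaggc
CALR (chr19:12938372-12938414, plus strand, −237 to −195): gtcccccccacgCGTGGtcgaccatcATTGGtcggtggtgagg
PDIA6 (chr2:10812841-10812883, minus strand, −98 to −56): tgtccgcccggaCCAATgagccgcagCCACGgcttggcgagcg

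An exact ERSE stood in 5 of the 10 genes: HSPA5, HSP90B1, CRELD2, CALR and, in 1 of its 2 windows, PDIA6. HSP90B1 had 2 of them, on opposite strands, at −194 and −89. All 58 bases of its 2 printed stretches lie in GENCODE exons of HSP90B1 and TTC41P, so its start site used here is not the only one annotated. ERSE-II stood in HERPUD1 at −117, in HYOU1 at −185 and −79, and in SDF2L1, the gene that is not listed, at −188. The UPRE of HYOU1 at −188 overlaps its upstream ERSE-II. HERPUD1 was the only one of the 10 genes with a C/EBP-ATF element, at −176. MANF and PDIA4 had no exact match to any of the 4 elements in this window, which says only that these letters are not in it. MANF held an ERSE-II with 1 mismatch at −113. With up to 1 mismatch, ERSE-II stood in 5 of the 10 genes and in 400 of all 27305 genes (1.46%). ERSE with up to 1 mismatch stood in 8 of the 10 genes and in 517 of all genes (1.89%), and PDIA4 held neither.

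Among 35116 windows of 27305 genes, ERSE was found in 25 genes (0.0916%), ERSE-II in 19 (0.0696%) and either of them in 44 (0.161%). The UPRE was found in 253 genes (0.927%) and the C/EBP-ATF element in 1217 (4.46%). Of the 44 genes with an ERSE or ERSE-II, 17 are listed (38.6%), of which 16 rose and 1 fell. Of the 36 such genes outside the 10 named above, 10 are listed (27.8%). CANX, EIF2A, ERO1B, FICD, NUCB1, SERP1, TRIM5, XBP1 and ZNF143 rose, and SHCBP1 fell by 1.28 on the log2 scale. Of all 27305 genes, 2588 are listed (9.48%), of which 1226 rose and 1219 fell in fasting medium. ALG12, which shares the ERSE of CRELD2 because it starts beside it on the other strand, is not listed. These shares are descriptions, and no enrichment was tested.

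**Figure D2:**
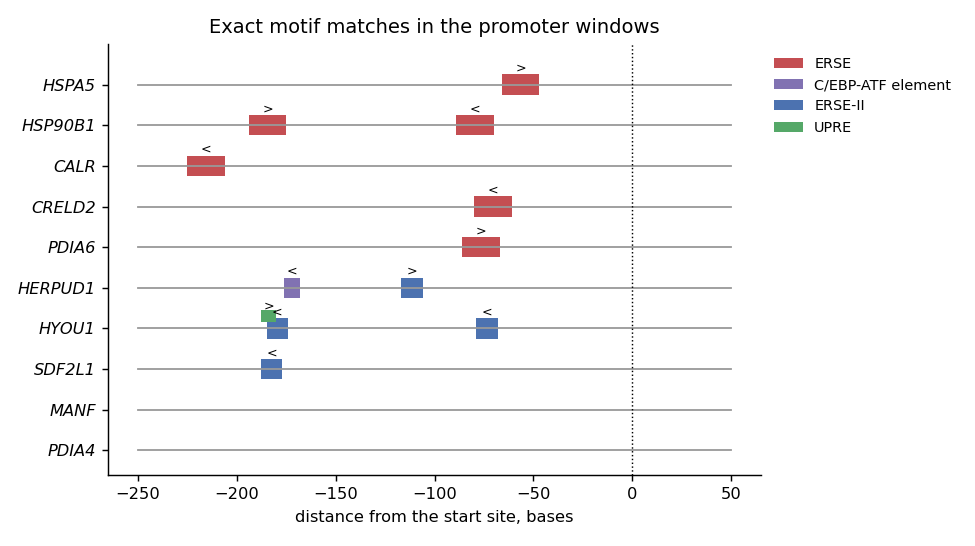
Exact matches to ERSE (red), ERSE-II (blue), the UPRE (green) and the C/EBP-ATF element (purple) in the promoter window of each of the 10 genes, by distance in bases from the start site (dotted line), with arrowheads for the strand relative to the gene. Matches start between −225 and −66, and the rows of MANF and PDIA4 are empty.

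HSPA5 (ENSG00000044574), also known as BiP or GRP78, binds unfolded chains and keeps the 3 UPR sensors inactive while it is bound to them. Its normalized count was 67101, 68057 and 74564 in fasting replicates 1 to 3, against 15666, 15584 and 16279 in control replicates 1 to 3. The 3 fasting libraries lie close together and far above the control libraries. HSPA5 averaged 69907 ± 4061 in fasting medium and 15843 ± 379.8 in control medium (SD, n = 3 each). The log2 fold change was 2.14 with a standard error of 0.09 (limma, adjusted p = 1.99e-05). Here and below, a log2 fold change is the mean log2(normalized count + 1) in fasting medium minus that in control medium. Low genes are understated on this scale, and folds are taken from it.

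HYOU1 (ENSG00000149428), also called GRP170, is an HSP110-type chaperone of the lumen and a nucleotide exchange factor of HSPA5. It had 6645, 6331 and 5095 normalized counts in fasting replicates 1 to 3, against 2759.5, 2794 and 2805 in control replicates 1 to 3. Fasting replicate 3, the highest fasting library in the other 8 genes, was the lowest here. The log2 fold change was 1.10 ± 0.11 (SE, limma, adjusted p = 0.000511), and 1.22 without fasting replicate 3.

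HSP90B1 (ENSG00000166598), also called GRP94, is the HSP90 of the ER and folds integrins and Toll-like receptors. Its normalized counts were 20914, 22288 and 27193 in fasting replicates 1 to 3 and 6899, 6699.5 and 6551 in control replicates 1 to 3. Every fasting value is thus far above every control value. The log2 fold change was 1.80 ± 0.11 (SE, limma, adjusted p = 6.8e-05).

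CALR (ENSG00000179218) encodes calreticulin, the soluble lectin that binds glycoproteins with glycans trimmed to their last glucose residue and also buffers calcium. It had 31887, 31866 and 42253 normalized counts in fasting replicates 1 to 3, against 16276, 16486 and 15858 in control replicates 1 to 3. Fasting replicates 1 and 2 agree closely, and replicate 3 is set above them. The log2 fold change was 1.11 ± 0.13 (SE, limma, adjusted p = 0.000923).

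PDIA4 and PDIA6 are protein disulfide isomerases that work with HSPA5, and PDIA6 also acts on the sensor IRE1. PDIA4 (ENSG00000155660) had 15529, 15351.5 and 17364 normalized counts in fasting replicates 1 to 3 and 6280.4, 6310.2 and 6659 in control replicates 1 to 3. PDIA6 (ENSG00000143870) had 7625, 7478 and 7904 in fasting replicates 1 to 3, against 3790.1, 3882 and 3728 in control replicates 1 to 3. PDIA6 showed the smallest difference of the 9 genes, with replicates close together in both groups. In limma the log2 fold changes were 1.32 ± 0.09 for PDIA4 (SE, adjusted p = 8.21e-05) and 1.01 ± 0.07 for PDIA6 (SE, adjusted p = 0.000129).

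MANF (ENSG00000145050) is a small secreted protein that binds HSPA5 in the lumen and is released from stressed cells, and CRELD2 (ENSG00000184164) is a secreted ER protein that is taken to assist folding. MANF had 2805, 2907 and 4729 normalized counts in fasting replicates 1 to 3, against 1137, 1176 and 999 in control replicates 1 to 3. CRELD2 had 814, 859.8 and 1229 in fasting replicates 1 to 3, against 377, 414 and 391 in control replicates 1 to 3. In both genes fasting replicate 3 stood well above the other fasting libraries, although none of them reached into the control range. The log2 fold change of MANF was 1.62 ± 0.20 (SE, limma, adjusted p = 0.00115), and 1.37 without fasting replicate 3. That of CRELD2 was 1.27 ± 0.16 (SE, limma, adjusted p = 0.00131), and 1.09 without fasting replicate 3.

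HERPUD1 (ENSG00000051108) is a ubiquitin-like protein of the ER membrane that is not a chaperone. It assembles the HRD1 ligase complex, through which misfolded proteins leave the ER. Its normalized counts were 4110.4, 4262 and 5139 in fasting replicates 1 to 3, against 434, 449 and 439.7 in control replicates 1 to 3. The groups lie far apart, and the fasting libraries spread more widely than the control libraries. HERPUD1 averaged 4504 ± 555 in fasting medium and 441 ± 7.60 in control medium (SD, n = 3 each). The log2 fold change was 3.34 ± 0.10 (SE, limma, adjusted p = 3.79e-06), the largest of the 9 genes. A pair of noncoding genes lies on the same strand inside HERPUD1 introns, so their reads and those of unspliced HERPUD1 RNA cannot be told apart. AC012181.2 had 22.8, 34.5 and 24.8 normalized counts in fasting libraries and 4.93, 2.13 and 2.18 in control libraries. AC012181.1 had 5.08, 8.37 and 13.8 in fasting libraries and 0.986, 0 and 0.727 in control libraries. These counts are small beside those of HERPUD1 itself. The sources used here do not state whether counting used the strand. For HSP90B1, HYOU1, CRELD2, CALR and PDIA6, which overlap genes on the opposite strand in the GENCODE annotation, reads of both strands cannot be told apart. None of those opposite-strand genes is listed in the table.

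**Figure D3:**
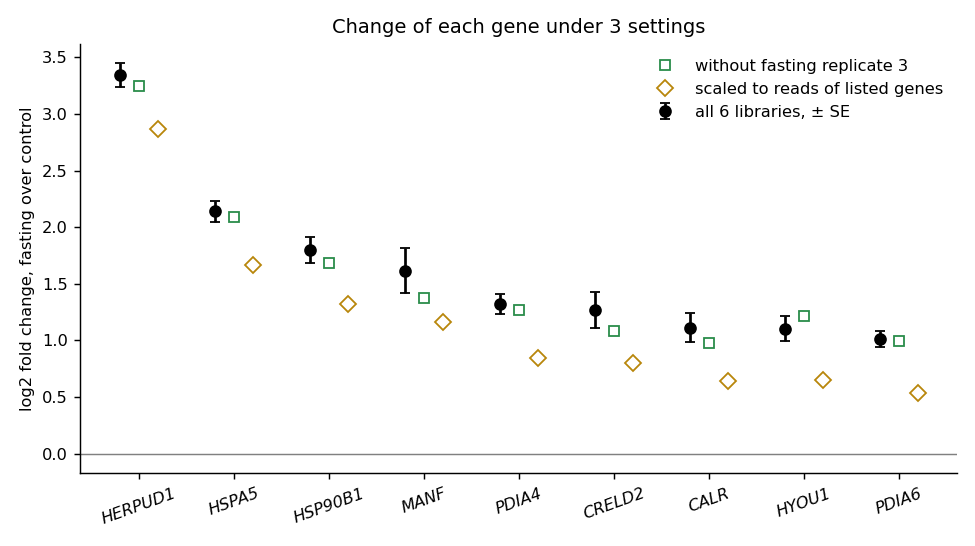
Log2 fold change, fasting over control, of the 9 listed genes: all 6 libraries with its standard error from limma (black), without fasting replicate 3 (green squares) and with libraries scaled to the reads of the listed genes in edgeR (yellow diamonds). The values under that scaling lie lower in every gene, from 0.54 in PDIA6 to 2.87 in HERPUD1, and all stay above 0.

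Fasting replicate 3 differed from the other fasting libraries with transcript length, taken from the longest protein-coding GENCODE transcript or else the longest of any kind. Over 2886 listed genes that averaged 100 or more in either group, its log2 ratio to the mean of fasting replicates 1 and 2 had a median of 0.37 in the shortest transcripts (78 to 2740 bases), 0.02 in the middle ones and −0.38 in the longest (4511 to 22743 bases). The 9 genes followed that order in part. MANF, with the shortest transcript at 1153 bases, had a log2 ratio of 0.73, and CRELD2, at 1577 bases, one of 0.55. HYOU1, with the longest at 4529 bases, had −0.35, while PDIA6, at 2682 bases, had 0.07. The trend with transcript length was then removed from each library, measured against the control mean and so not for fasting replicate 3 alone. The log2 fold change was then 1.23 in MANF, 0.93 in CRELD2, 0.80 in CALR, 1.24 in HYOU1 and 2.18 in HSPA5. It was lowest in PDIA6, at 0.77, against 1.01 before and 0.99 without fasting replicate 3. All 9 genes were called higher by limma. Without fasting replicate 3 all 9 were called higher too, with log2 fold changes of 0.98 (CALR) to 3.24 (HERPUD1).

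**Figure D4:**
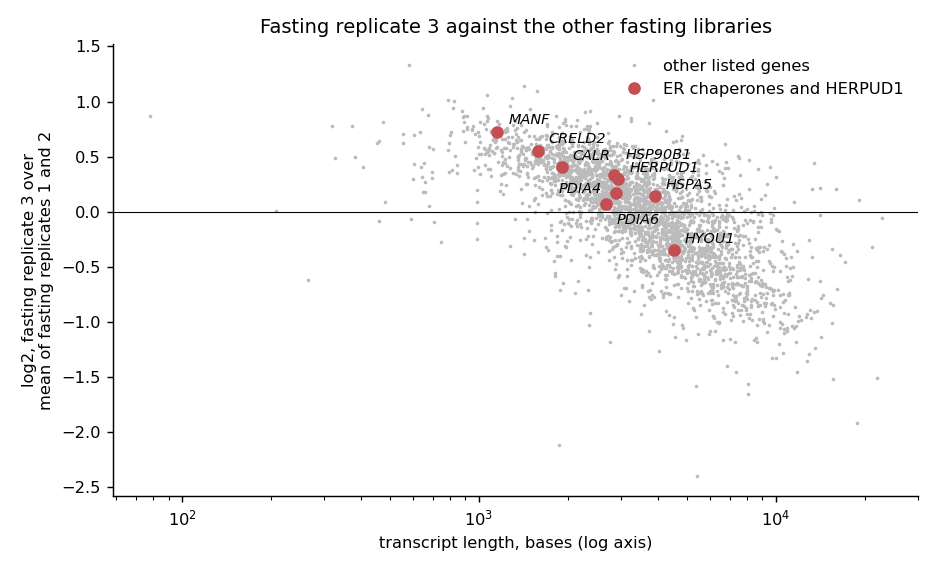
Log2 ratio of fasting replicate 3 to the mean of fasting replicates 1 and 2 against transcript length in bases (log axis) for 2886 listed genes (grey) and the 9 ER folding genes (red). The ratio is above 0 in most short transcripts and below 0 in most long ones, with MANF at 0.73 and HYOU1 at −0.35 at the ends of the red points.

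To compare levels between genes, the normalized counts were divided by the length of the longest protein-coding transcript. Which transcripts these cells used is not known, and the order and shares below depend on that choice. CALR and HSPA5 had the highest levels in fasting medium, with 18568 ± 3148 and 17888 ± 1039 normalized counts per kilobase (SD, n = 3 each), and their libraries overlapped. In control medium CALR had 8516 ± 168 and HSPA5 4054 ± 97.2 per kilobase, and CALR was higher in each library. In fasting medium HSP90B1, PDIA4, then MANF and PDIA6, then HERPUD1 and HYOU1, and last CRELD2 followed, where the 2 pairs did not separate. HERPUD1 had the lowest level of the 9 genes in control medium, at 150 ± 2.58 per kilobase, and stood seventh in fasting medium at 1529 ± 188 per kilobase. In control medium CRELD2 (250) and HYOU1 (615) stood above HERPUD1.

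The makeup of the group was also compared. Per length, HSPA5 made up 30.2% ± 1.63 of the summed level of the 9 genes in fasting medium and 19.8% ± 0.618 in control medium (SD, n = 3 each). CALR made up 31.1% ± 1.61 in fasting medium and 41.5% ± 0.509 in control medium. HERPUD1 made up 2.57% ± 0.0346 in fasting medium and 0.729% ± 0.0106 in control medium. The shares of the groups did not overlap for any of the 9 genes except MANF. MANF made up 5.00% ± 0.938 in fasting medium and 4.66% ± 0.359 in control medium. The share of PDIA6 was 4.83% in fasting medium and 6.90% in control medium, although its RNA rose. The 9 genes together had 167434 ± 15651 normalized counts in fasting medium and 53708 ± 87.7 in control medium, a ratio of 3.12. They took 2.96% to 3.07% of the counts of all listed genes in fasting libraries and 1.34% to 1.35% in control libraries.

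The degradation factor and the chaperone were compared within each library, where the size factor cancels. The log2 ratio of HERPUD1 to HSPA5 was −4.03, −4.00 and −3.86 in fasting replicates 1 to 3, against −5.17, −5.11 and −5.21 in control replicates 1 to 3. HERPUD1 thus had 6.13%, 6.26% and 6.89% of the counts of HSPA5 in fasting libraries, against 2.77%, 2.88% and 2.70% in control libraries. The groups did not overlap, and HERPUD1 gained 2.30-fold on HSPA5 (log2 difference 1.20). An exact two-sided permutation test gave p = 0.1, the smallest that 3 against 3 libraries allow, so this test cannot pass 0.05. With the trend in transcript length removed the difference was 0.99.

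The other ER genes were described in 7 lists by function. The upstream genes came first. Of 18 UPR sensors and transcription factors 6 are listed, and all 6 rose, with a median log2 fold change of 1.67. DDIT3 (CHOP), a transcription factor that ATF4 induces, had 507, 555 and 972 normalized counts in fasting libraries and 41.4, 42.6 and 42.9 in control libraries (limma, log2 fold change 3.91, adjusted p = 5.6e-05). ATF4 rose by 2.13 on the log2 scale, with 9302 to 13421 normalized counts in fasting libraries and 2352 to 2552 in control libraries (limma, adjusted p = 9.38e-05). Of the other members, whose values were seen before they were picked as examples, XBP1 rose by 1.86, ERN1 (IRE1) by 1.47 and EIF2AK3 (PERK) by 1.17 on the log2 scale. ATF6, the third sensor, is not listed. The splicing of XBP1 cannot be read from gene counts.

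A list of ER J-domain proteins, exchange factors and the HSP70 relative HSPA13 was considered next. Of its 12 genes 7 are listed, HSPA13 among them, and all 7 rose, with a median log2 fold change of 0.95. DNAJB9 (ERdj4), which directs HSPA5 to IRE1, had 971, 1056 and 1170 normalized counts in fasting libraries, against 277, 260.0 and 249 in control libraries (limma, log2 fold change 2.02, adjusted p = 3.02e-05). DNAJB11 (ERdj3), a secreted cochaperone, rose by 1.34 on the log2 scale (limma, adjusted p = 8.21e-05). SIL1, an exchange factor of HSPA5 like HYOU1, is not listed.

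Disulfide isomerases and oxidases went both ways. Of 24 such genes 9 are listed, of which 7 rose and 2 fell. Their median log2 fold change was 0.74. P4HB, the founding protein disulfide isomerase, had 16477, 16408 and 17272 normalized counts in fasting libraries and 8425, 8509 and 8417 in control libraries (limma, log2 fold change 0.98, adjusted p = 0.000175). PDIA3 (ERp57), the isomerase that works with calreticulin and calnexin, rose by 1.25 on the log2 scale (limma, adjusted p = 0.000211). TXNDC16, a thioredoxin-domain protein of the ER, had 47.0, 37.7 and 27.5 in fasting libraries and 99.6, 100.2 and 90.8 in control libraries, and it fell by 1.38 on the log2 scale (limma, adjusted p = 0.00305). The other that fell was TXNDC5, by 0.71 on the log2 scale, named after its value was seen.

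In glycoprotein folding 2 of 13 genes are listed, and both rose, LMAN1 by 0.75 and CANX by 0.64 on the log2 scale. LMAN1 carries glycoproteins out of the ER, and CANX, calnexin, is the membrane-bound counterpart of CALR. CANX had 23481, 23173 and 17243 normalized counts in fasting libraries and 13857, 13743 and 13087 in control libraries (limma, adjusted p = 0.0153). Its call was lost when any library other than fasting replicate 3 was left out, with limma adjusted p-values of 0.0661 to 0.0836.

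In ER-associated degradation, the process that HERPUD1 serves, 12 of 32 genes are listed and all 12 rose, with a median log2 fold change of 1.02. DERL3, a channel component induced by the UPR, was a low gene with 58.4, 65.9 and 63.3 normalized counts in fasting libraries and 11.8, 8.53 and 7.99 in control libraries (limma, log2 fold change 2.62, adjusted p = 0.000161). RNF185, a ubiquitin ligase, rose by 1.03 on the log2 scale (limma, adjusted p = 0.000255). Named with their values in view, SYVN1 (HRD1), the ligase to which HERPUD1 binds, rose by 1.03 and its adaptor SEL1L by 1.16 on the log2 scale. SEL1L had 3231, 3301 and 1763 in fasting libraries and 1156, 1189 and 1212 in control libraries, so fasting replicate 3 was low there. HERPUD2, the paralog of HERPUD1, is not listed.

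At the entry to the ER, 8 of 24 genes of the translocon, signal peptidase and oligosaccharyltransferase are listed, and all 8 rose, with a median log2 fold change of 0.69. TRAM1, a translocon protein, rose by 1.03 (limma, adjusted p = 0.000171) and SSR3, a subunit of the translocon-associated complex, by 0.80 on the log2 scale (limma, adjusted p = 0.000886). Of 15 prolyl isomerases and collagen chaperones 6 are listed, of which 5 rose and 1 fell, with a median of 1.02. The collagen prolyl hydroxylase subunits P4HA2 and P4HA1 rose by 1.58 and 1.59 on the log2 scale, with limma adjusted p-values of 3.02e-05 and 5.8e-05. FKBP9, a prolyl isomerase, fell by 0.68 on the log2 scale (limma, adjusted p = 0.00303).

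Together 50 listed genes of these 7 lists were called, 47 higher and 3 lower in fasting medium, beside 1745 higher and 1567 lower among all listed genes. That balance rests on the size factors. Scaling to the reads of the listed genes sets the sums of these selected genes equal between libraries. Outside the 9 genes they summed to 5.15e+06 to 5.85e+06 normalized counts in fasting libraries and 3.91e+06 to 3.95e+06 in control libraries. A downward shift was thus fixed in advance. The log2 fold changes of all listed genes shifted by a median of −0.47. Of the 50 genes 25 were then called, 22 higher and 3 lower, beside 879 higher and 1734 lower among all listed genes. Under that scaling 5 UPR genes, 3 genes of the J-domain list, 3 disulfide genes and 5 degradation genes were called higher. So were 3 entry genes and 3 prolyl isomerase or collagen genes, but no glycoprotein gene. The 9 genes described above were all called higher under that scaling too.

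**Figure D5:**
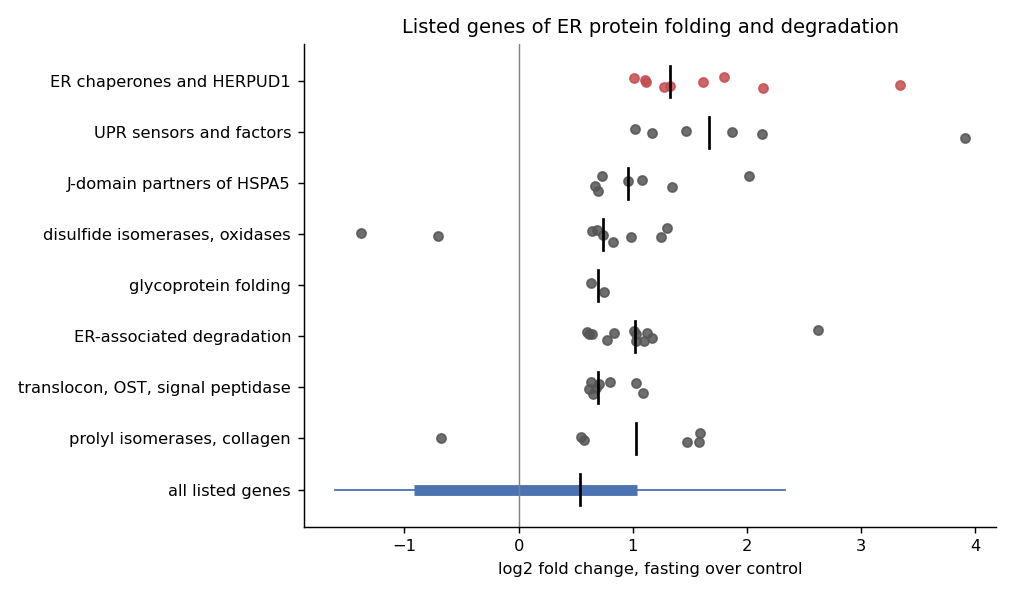
Log2 fold change, fasting over control, of the listed members of each ER list (points; the 9 genes described here in red), with a bar at the median, and of all listed genes (blue: thick line from the 25th to the 75th percentile, thin line from the 5th to the 95th). The 9 genes lie between 1.01 and 3.34, against a median of 0.53 over all listed genes, and points below 0 stand in 2 lists. Over listed genes with a positive value, which are not drawn apart, the median is 1.04.

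Relatives of the 9 genes, most of them outside the ER, were compared too. Of 23 paralogs and family members 14 are listed, among them the ER genes P4HB, PDIA3, CANX and HSPA13 already counted in other lists, and all 14 rose, 12 of them also when scaled to the reads of the listed genes. Their median log2 fold change was 1.24. HSPA6, an inducible cytosolic HSP70, had 4225, 4157 and 5470 normalized counts in fasting libraries, against 10.8, 14.2 and 9.45 in control libraries (limma, log2 fold change 8.54, adjusted p = 1.85e-06). HSPH1, the cytosolic counterpart of HYOU1, rose by 2.94 on the log2 scale (limma, adjusted p = 2.8e-06). The cytosolic HSP70 HSPA8 rose by 1.47, the mitochondrial HSP70 HSPA9 by 1.06, and the cytosolic HSP90 genes HSP90AB1 and HSP90AA1 by 1.24 and 1.06 on the log2 scale, all named after their values were seen. HSP90B1, at 1.80, and HSPA5, at 2.14, thus stood beside cytosolic relatives that were also higher in fasting medium, some by less and some by more, and no difference between compartments was tested. Near-identical paralogs such as HSPA1A and HSPA1B share reads, and their split is uncertain.

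A list of immediate early and heat shock genes, which also respond to handling and RNA quality, moved with the group. Of 10 such genes 8 are listed, and all 8 rose, with a median log2 fold change of 3.50. HSPA1A and HSPA1B among them were already counted as relatives above. FOS had 2684, 2676 and 3264 normalized counts in fasting libraries and 110.5, 104 and 119 in control libraries (limma, log2 fold change 4.67, adjusted p = 2.16e-06). HSPA1B rose by 3.91 on the log2 scale (limma, adjusted p = 3.53e-06). KRT18, the listed epithelial marker, rose by 1.72 (limma, adjusted p = 0.00108), with 2018, 1959 and 3402 normalized counts in fasting libraries and 757, 656 and 755 in control libraries. The part of these in the ER results was not tested.

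Among the other 3510 listed genes, those nearest to HSPA5 over the 6 libraries were GPRC5A, ZC3H12A, GARS1, GEM and CARS1, with root mean square distances of 0.03 to 0.07 between log2 values centred on control. GARS1 and CARS1 are aminoacyl-tRNA synthetases, ZC3H12A (Regnase) is an RNase and GEM a small GTPase. GPRC5A, a membrane receptor, had 519, 539 and 569 normalized counts in fasting libraries and 118, 122 and 132 in control libraries, a log2 fold change of 2.12 beside 2.14 for HSPA5. Nearest to HERPUD1 were PPP1R15A, SESN2, SLC3A2, DNAJB4 and TRIB3, at distances of 0.10 to 0.14. PPP1R15A (GADD34), a phosphatase subunit that lifts a block on translation, had 18468, 17874.5 and 23251 in fasting libraries and 1734, 1801 and 1793 in control libraries. SESN2 is a regulator of mTORC1, SLC3A2 a subunit of amino acid transporters, TRIB3 a pseudokinase and DNAJB4 a cytosolic cochaperone. None of the 9 ER genes was among the nearest 5 of HSPA5 or of HERPUD1.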

How the data were processed

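RNA of 6 RKO samples was analysed from 1 deposited table. Groups came from each sample's treatment label, since the protocol text shared by all samples describes low-serum medium. Per the labels' protocols, RNA was made into directional libraries. Tools listed by the submitters' processing notes, without roles, are DESeq 1.10.1, HTSeq 0.6.1 and UMI-tools 1.0.0. Aligner, annotation and genome build: not given in the sources used here. The deposited sample columns hold a signal, normalized read counts, and the authors' log2 fold change and p-value columns stand beside them. The table lists 3511 of 29845 tested genes (11.8%, the total inferred from p, rank and adjusted p), chosen by the authors on adjusted p. The values were whole reads divided by a size factor for 100% of values within 0.01 read, with factors of 0.788, 0.956 and 0.727 in fasting replicates 1 to 3 and 1.01, 1.41 and 1.38 in control replicates 1 to 3. On the recovered reads edgeR called 3359 genes.

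limma 3.58.1 (R 4.3.3), with a mean-variance trend and moderation, was fitted to log2(normalized count + 1) of listed genes whose mean reached 1 in either group, over all 6 libraries. The two-sided limma p-values were adjusted over all 29845 genes, counting the unlisted ones as unchanged, with a threshold of 0.05. Moderation was estimated on genes selected for their difference. limma called 3312 genes. edgeR 4.0.16 and DESeq2 1.42.0 on the recovered reads, other pseudocounts, filters and scalings, a replicate block, removal of the length trend and leaving out each library were alternatives, and the scripts were tested on simulated data. Symbols came from a gene name table (3467 identifiers matched), lengths from GENCODE (3465 genes), and promoter sequences from RefSeq, GRCh38.p14, where each of the 10 genes matched.

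The members, the gene lists, the motifs and the tests were chosen with earlier results of these data known, and calls support nothing beyond description. The genes named are the 10 genes, from each list the 2 with the lowest adjusted p and the first called in the opposite direction, and the 5 genes nearest in pattern to HSPA5 and to HERPUD1. Others are examples chosen after their values were seen.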

Additional observations from a re-analysis of the deposited data

How the results depend on the processing

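The 9 listed ER folding genes kept their direction and their call in all 17 alternatives, with log2 fold changes of 2.87 to 3.55 for HERPUD1 and 1.66 to 2.34 for HSPA5. The highest adjusted p was 0.0474, for MANF in limma without moderation. Leaving out the filter, 1 of the 17, could change nothing, since all 3511 listed genes had passed it. Of the other 31 named genes, CANX, LMAN1 and TXNDC16 lost their call under some alternatives and none changed sign. Without moderation 1981 listed genes were called, against 3312 with it. Scaled to the reads of the listed genes, 25 genes of the 7 other ER lists were called, against 50, and of the 2613 calls among all listed genes 33.6% were higher in fasting medium, against 52.7% of the 3312. DESeq2's own scaling shifted all log2 fold changes by a median of 0.20 the other way. Leaving out 1 library gave 2624 to 3509 calls among all listed genes, 44 to 50 in the other ER lists, 9 of the 9 genes each time, and a log2 difference of HERPUD1 to HSPA5 of 1.15 to 1.24. The replicate numbers are not stated to pair libraries, and deviations of same-numbered libraries correlated at 0.03, 0.03 and 0.08 over 2897 genes. With the replicate number as a block, 3293 listed genes, 9 of the 9 genes and 50 genes of the other ER lists were called, and the HERPUD1 to HSPA5 difference was 1.20. Depth limited none of the 9 genes, whose recovered reads numbered 382 (CRELD2, control replicate 1) to 65062 per library (HSPA5, fasting replicate 2).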
